A study of Mus musculus with 20 samples.

Results

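The Slc25 family of mitochondrial solute carriers was followed in adipocytes made in culture from 3T3-L1 cells, a line of mouse preadipocytes, after manipulation of the forkhead transcription factors Foxk1 and Foxk2. Members were the protein-coding genes of the deposited expression table whose Ensembl identifier maps to a mouse symbol beginning with Slc25a, which gave 47 of 48440 genes (21683 of them protein-coding). The 20 RNA-seq libraries, all from total RNA of this line (Swiss mouse strain per the labels), formed 8 groups. Constitutive overexpression of FOXK1 had 3 libraries and its empty vector control 3. A Foxk1 shRNA had 3 libraries and its scrambled shRNA control 3. FOXK2 overexpression and its empty vector control had 2 each, as had a Foxk2 shRNA and its scrambled control. All cells had been differentiated with dexamethasone, isobutyl methylxanthine, insulin and troglitazone. The labels give 1 construct per manipulation. They do not say that replicates came from separate cultures, and the spread behind every p-value is that between libraries, which may be technical. Levels are given as RPKM, the reads of a gene scaled to the length of its exons and to the size of the library.

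Slc25 carriers are encoded in the nucleus, made in the cytosol and inserted into the mitochondrial inner membrane by the TIM22 pathway, where small Tim proteins escort them across the intermembrane space. Most members exchange 1 metabolite for another across that membrane, which is otherwise closed to charged solutes. In fat cells the citrate carrier has a particular role, since citrate exported from the matrix is the carbon source of cytosolic fatty acid synthesis, while the malate, aspartate-glutamate and phosphate carriers tie the cytosolic redox state and ATP supply to respiration.

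The 2 sets of libraries, Foxk1 and Foxk2, were read at different depths (16739763 to 20772823 and 31378224 to 36157008 reads assigned to genes), and the first principal component of all genes, with 79.5% of the variance, parted them. Each manipulation was therefore set against its own control only, in limma on log2(RPKM + 0.5) with p-values adjusted by Benjamini-Hochberg over 15981 genes. The spread of each gene was pooled over all 8 groups, and so over both sets. A gene passed at an adjusted p under 0.05. Foxk1 transcript was lower in the libraries labelled Foxk1 overexpression than in their control (6.16, 6.06 and 6.08 RPKM, against 7.11, 7.48 and 8.04), so for them every direction below is that of the label. Targets fell in both knockdowns (-1.23 for Foxk1 and -1.83 for Foxk2, log2), and Foxk2 rose in its overexpression (0.56), where Foxk1 fell (-0.66). In the libraries labelled Foxk1 overexpression the pair of directions was the same: Foxk2 rose (0.29) and Foxk1 fell (-0.28). In Foxk1 knockdown Foxk2 fell (-0.19), and in Foxk2 knockdown Foxk1 rose (0.30). Adipocyte markers were abundant throughout (10 genes summing to at least 7677 RPKM in every library), and macrophage markers were low (6 genes summing to at most 3.799 RPKM). Of the 3 macrophage markers tested, 1 rose under the Foxk1 overexpression label and 1 in Foxk2 knockdown, and 0 fell in any comparison. The macrophage list summed to 3.10 to 3.52 RPKM with Foxk2 knockdown, against 1.82 to 1.90. Of 5 myocyte markers, Myog had no read, Myh1 and Ckm stayed under 0.5 RPKM in every library, and Des moved with the groups (0.65 under the Foxk1 overexpression label, -0.70 in Foxk1 knockdown, 1.13 with Foxk2 overexpression and -0.71 in Foxk2 knockdown, all passing). The fifth, Acta1, passed under the Foxk1 overexpression label alone (-0.67). The list summed to 9.97 to 11.4 RPKM under that label, against 7.05 to 7.66, to 8.32 to 8.88 with Foxk1 knockdown, against 12.8 to 13.7, to 11.3 to 12.1 with Foxk2 overexpression, against 5.496 to 6.14, and to 5.48 to 5.87 with Foxk2 knockdown, against 8.83 to 9.11.

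Markers of fibroblasts or preadipocytes, the cells that have not become adipocytes, moved in every comparison: all 12 of the list fell in both overexpression comparisons (median log2 fold change -1.39 for the Foxk1 label and -1.07 for Foxk2) and all 12 rose in both knockdowns (0.71 and 1.49). Their summed level was 549.6 to 576 RPKM in the libraries labelled Foxk1 overexpression, against 1134 to 1337 in the control, and 3313 to 3480.1 RPKM with Foxk1 knockdown, against 1899.9 to 2039. Foxk2 overexpression had 519 to 534 RPKM, against 1053 to 1078 in its control, and Foxk2 knockdown 1725 to 1790.1 RPKM, against 697 to 699. The 6 brown adipocyte markers, of which Ucp1, Prdm16 and Dio2 stayed under 0.5 RPKM in every library, summed to 46.1 to 47.4 RPKM in the libraries labelled Foxk1 overexpression, against 6.66 to 7.76, and to 43.3 to 51.3 with Foxk2 overexpression, against 4.34 to 5.33. They summed to 2.43 to 2.53 RPKM with Foxk1 knockdown, against 2.87 to 3.34, and to 3.63 to 3.86 with Foxk2 knockdown, against 9.56 to 10.5. Of the 3 brown markers tested, 2 rose under the Foxk1 overexpression label and 3 with Foxk2 overexpression, and 0 fell in either. The third under the Foxk1 label did not pass (-0.14). In Foxk1 knockdown 1 of the 3 fell and in Foxk2 knockdown 2, and 0 rose. Of the 10 adipocyte markers, 7 fell in each overexpression comparison and in Foxk1 knockdown, and 4 in Foxk2 knockdown (1 and 2 rose in the Foxk1 and Foxk2 overexpression comparisons, 0 in the knockdowns), and their summed level was below the control in each. In such bulk samples, fewer cells of a type and less RNA per cell cannot be told apart, and the part of these marker shifts in the carrier results below was not tested.

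A few carriers made up most of the family's transcript. Slc25a1, the citrate carrier, averaged 364 RPKM over the 20 libraries, followed by the ADP/ATP translocase gene Slc25a5 (289.9), the dicarboxylate carrier gene Slc25a10 (259) and the other translocase gene Slc25a4 (231). These 4 held 66.9% of the summed RPKM of the 47 members. Slc25a39, needed for glutathione import, and the phosphate carrier gene Slc25a3 came next, at 101 and 85.5 RPKM. The ranges over 20 libraries of the first 3 overlap (208 to 575 RPKM for Slc25a1, 250.2 to 352 for Slc25a5, 169 to 364 for Slc25a10), so their order is that of the means alone, while every library had more Slc25a5 than any had Slc25a4. Slc25a4 was the steadiest of the tested members, with 216 to 243 RPKM and a ratio of highest to lowest library of 1.13, and Slc25a34, an uncharacterised relative of the oxaloacetate carriers, was the least steady, with 0.378 to 21.7 RPKM and a ratio of 57.5.

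**Figure D1:**
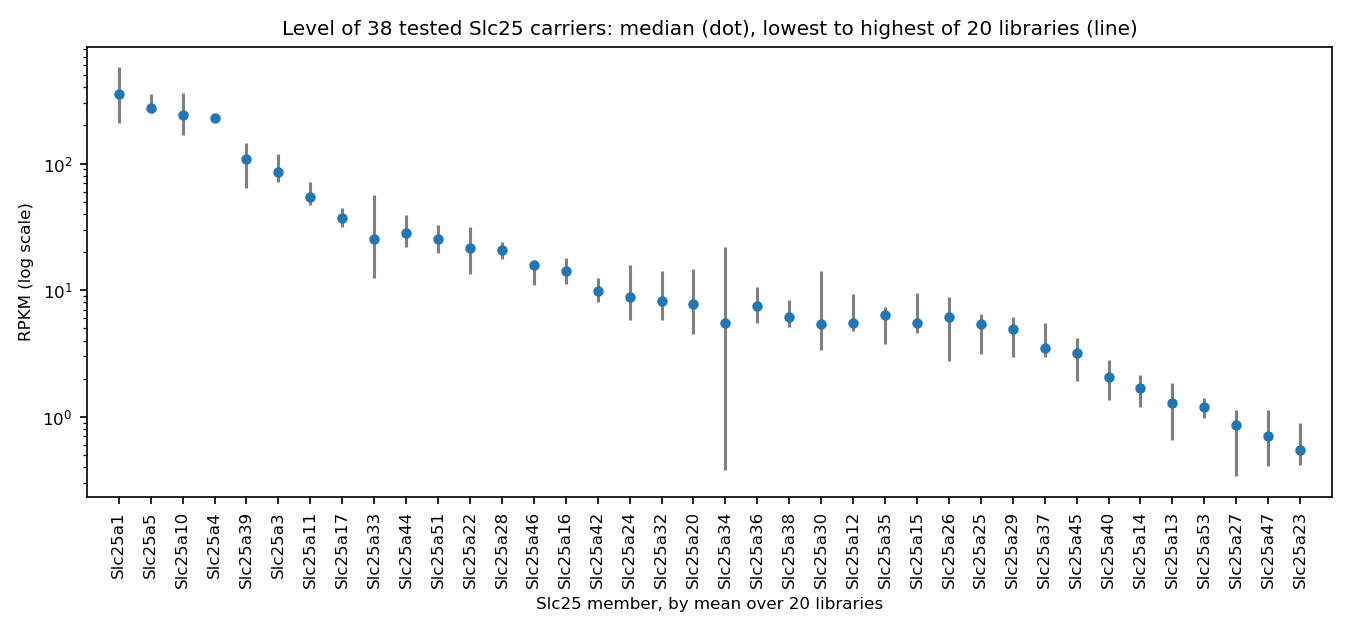
Median RPKM (dot) and the lowest to highest of the 20 libraries (line) of 38 of the 39 tested Slc25 members, on a log axis, in order of their mean. Slc25a1, Slc25a5, Slc25a10 and Slc25a4 stand at the top, and the line of Slc25a34 spans 0.378 to 21.7 RPKM.

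Of the 47 members, 39 passed the filter of 0.5 RPKM or more in at least 2 libraries. The 8 others were at or near 0: the glutamate carrier gene Slc25a18 and the ornithine carrier gene Slc25a2 averaged 0.124 and 0.0949 RPKM, and Slc25a41, Slc25a54, Slc25a21, Slc25a31 and Slc25a48 had 11, 10, 13, 3 and 1 reads in all libraries together. Slc25a31 encodes the ADP/ATP translocase of the testis. Slc25a43 had 0 of 492519696 reads, which allows a level of up to 0.00342 RPKM over the 20 libraries (3 reads, counting error only).

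Carrier transcripts leaned upward in both overexpression comparisons and downward in both knockdowns. In the libraries labelled Foxk1 overexpression, 16 of the 39 tested members rose, 6 fell and 17 did not pass, while 47.8% of all genes tested passed in either direction (24.1% higher, 23.8% lower). With Foxk2 overexpression, 23 rose, 5 fell and 11 did not pass, against 45.0% of all genes (23.0% higher, 22.0% lower). In Foxk1 knockdown, 3 rose, 15 fell and 21 did not pass, against 35.9% of all genes (20.4% higher, 15.5% lower). In Foxk2 knockdown, 2 rose, 18 fell and 19 did not pass, against 33.7% of all genes (18.0% higher, 15.7% lower). The shares that passed in the direction of the lean were thus above those of all genes, and the shares in the other direction were below them. Median log2 fold changes of the members were 0.054 for the Foxk1 overexpression label, -0.072 for Foxk1 knockdown, 0.22 for Foxk2 overexpression and -0.14 for Foxk2 knockdown, beside 0, 0.017, 0.0016 and 0 over all genes tested. After removal of the part of each library's values that follows gene length and GC content, the split under the Foxk1 overexpression label was 18 higher and 3 lower. That removal moved all genes the same way: 4723 of 15926 were higher and 3424 lower. The share of calls that were higher was then 58.0%, against 50.3% in the main fit. In Foxk1 knockdown the removal gave 2695 genes higher and 3497 lower over all genes, against 3260 and 2474 in the main fit. In Foxk2 knockdown it gave 2270 and 3343, against 2879 and 2507. With the trend removed, all genes thus leaned downward in both knockdowns, as the members did in the main fit.

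The summed RPKM of the family followed in 3 of the 4 comparisons. It was 1390.1 to 1405 with Foxk1 knockdown, against 1654 to 1689 in its control, and 1702 to 1747 with Foxk2 knockdown, against 1947 to 1967. Foxk2 overexpression summed to 2024 to 2059.6 RPKM, against 1671 to 1804. Much of each of these shifts lay in 1 abundant gene, Slc25a1. Its mean was 218 RPKM with Foxk1 knockdown, against 358, and 357 with Foxk2 knockdown, against 501. With Foxk2 overexpression it was 573, against 346. In the libraries labelled Foxk1 overexpression the sum was 1659.9 to 1715 RPKM, against 1629 to 1689, and these ranges overlap: Slc25a1 was higher there and Slc25a5 and Slc25a10 lower.

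**Figure D2:**
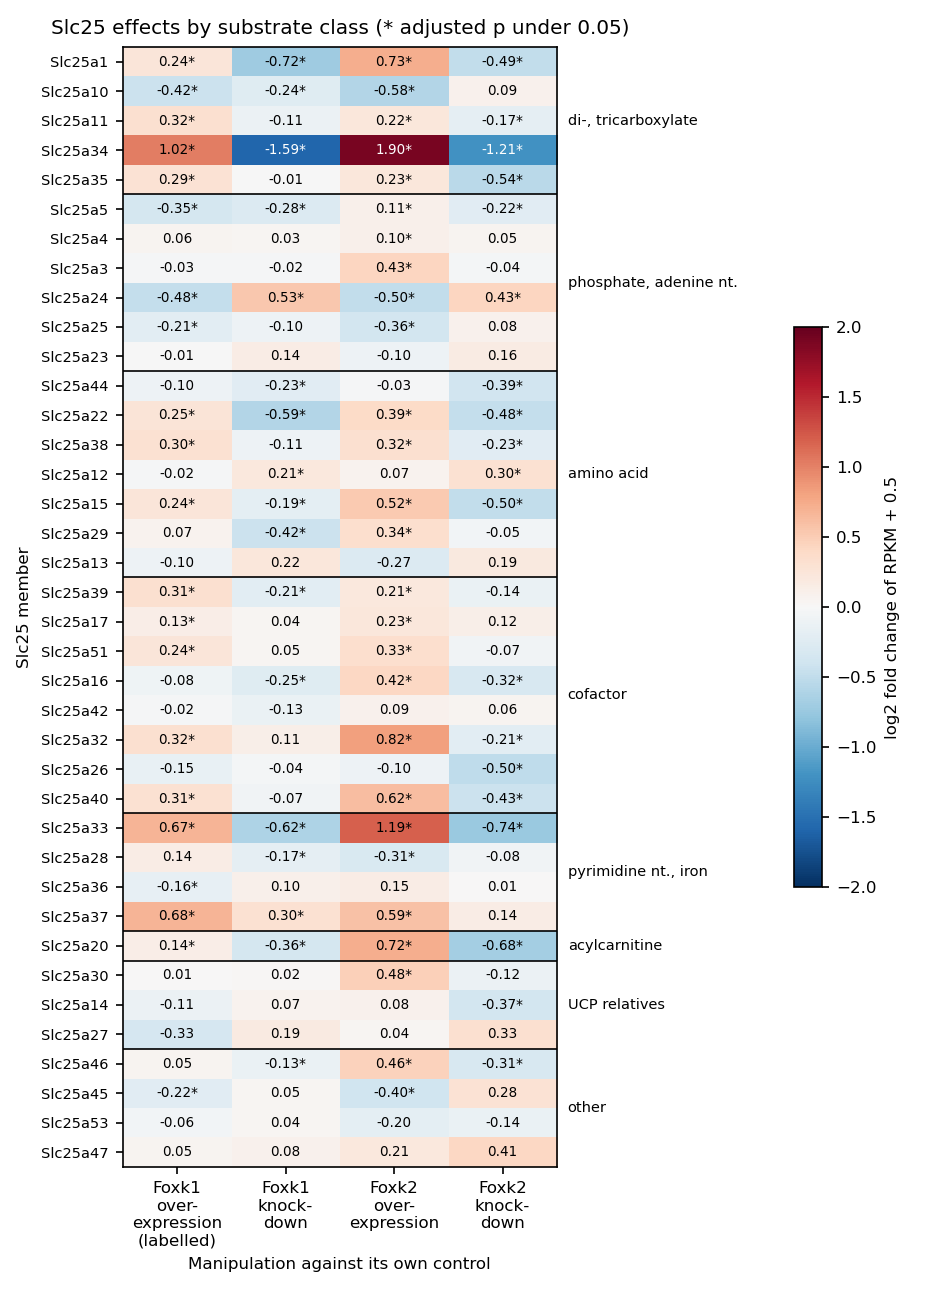
Log2 fold change of RPKM + 0.5 (colour and number) for 38 of the 39 tested Slc25 members (rows, by substrate class and then by mean level) in the 4 comparisons of a manipulation with its own control (columns), with a star where the adjusted p was under 0.05. Slc25a34 and Slc25a33 are red in both overexpression columns and blue in both knockdown columns, and Slc25a24 runs the other way.

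Slc25a34 had the largest fold change of the tested members in each of the 4 comparisons. It belongs with Slc25a35 to the branch of the family related to oxaloacetate carriers, and its substrate is not settled (ENSMUSG00000040740.7, chromosome 4, 141618824 to 141623821, minus strand, mm10). It had 0.378, 0.4698 and 0.592 RPKM with Foxk1 knockdown, against 2.65, 2.54 and 2.16 in the control (-1.59 ± 0.10 SE, adjusted p = 8.36e-09, on the log2 scale, as for all changes below). The knockdown values lie near the 0.5 added before the logarithm, and the plain ratio of mean RPKM was 0.196. Foxk2 knockdown libraries had 3.21 and 2.68 RPKM, against 7.35 and 7.495 (-1.21 ± 0.12 SE, adjusted p = 1.41e-06). In the libraries labelled Foxk1 overexpression it had 20.3, 21.04 and 21.7 RPKM, against 8.73, 11.6 and 10.2 (1.02 ± 0.10 SE, adjusted p = 4.23e-07). Foxk2 overexpression gave 14.2 and 15.2 RPKM, against 3.62 and 3.54 (1.90 ± 0.12 SE, adjusted p = 4.92e-09). In none of the 4 comparisons did a manipulated library overlap its control. Such separation, here and below, is weak evidence with 2 or 3 libraries per group, and its share over all genes was not computed. Slc25a42 and Slc25a14 showed it with Foxk2 overexpression without passing (adjusted p = 0.386 and 0.627). Slc25a16 did so under the Foxk1 overexpression label (adjusted p = 0.236).

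Slc25a33, a pyrimidine nucleotide carrier of the matrix that supplies mitochondrial DNA and RNA synthesis, followed the same order at a higher level (ENSMUSG00000028982.9, chromosome 4, 149744036 to 149774277, minus strand). The libraries labelled Foxk1 overexpression had 52.97, 53.9 and 55.6 RPKM, against 32.7, 35.6 and 33.1 (0.67 ± 0.055 SE, adjusted p = 7.61e-08), and Foxk2 overexpression 49.2 and 56.003, against 22.4 and 23.1 (1.19 ± 0.068 SE, adjusted p = 1.76e-09). Foxk1 knockdown libraries had 12.5, 12.7 and 13.6 RPKM, against 19.2, 21.5 and 19.99 (-0.62 ± 0.055 SE, adjusted p = 3.70e-07), and Foxk2 knockdown libraries 17.8 and 16.4, against 29.8 and 27.9 (-0.74 ± 0.068 SE, adjusted p = 6.14e-07). The groups lie apart in each comparison. Of its exonic bases 14.9% overlap an antisense gene, Gm13068, and the strand of the libraries is not given in the sources used here, so reads of the pair cannot be told apart there.

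The citrate carrier gene Slc25a1 was the most abundant member to follow this order (ENSMUSG00000003528.14, chromosome 16, 17925223 to 17928219, minus strand). It had 208, 224 and 222 RPKM with Foxk1 knockdown, against 365, 359 and 350.4 (-0.72 ± 0.048 SE, adjusted p = 1.82e-08), and 360.2 and 354 with Foxk2 knockdown, against 495 and 506 (-0.49 ± 0.058 SE, adjusted p = 9.71e-06). Foxk2 overexpression gave 575 and 570.2 RPKM, against 323 and 369 (0.73 ± 0.058 SE, adjusted p = 6.59e-08). The rise under the Foxk1 overexpression label was the smallest of its 4 changes, 352, 368 and 358 RPKM against 288, 320.4 and 307 (0.24 ± 0.048 SE, adjusted p = 0.000688), and it did not pass after quantile normalization (0.081, adjusted p = 0.259). No library of Slc25a1 overlapped the other group of its comparison.

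Slc25a20, the carnitine-acylcarnitine carrier through which fatty acids enter the matrix for oxidation, had 13.2 and 14.6 RPKM with Foxk2 overexpression, against 7.999 and 8.502 (0.72 ± 0.055 SE, adjusted p = 4.49e-08), and 6.82 and 6.97 with Foxk2 knockdown, against 11.2 and 11.5 (-0.68 ± 0.055 SE, adjusted p = 1.67e-07). With Foxk1 knockdown it had 4.54, 4.99 and 4.54 RPKM, against 6.26, 6.097 and 6.11 (-0.36 ± 0.045 SE, adjusted p = 1.47e-05). Its rise under the Foxk1 overexpression label was small (0.14 ± 0.045, adjusted p = 0.0217) and was lost in 3 of the fits that left out 1 library of that comparison: without control replicate 1, without overexpression replicate 1 and without overexpression replicate 2. Slc25a22, a glutamate carrier, had 13.3, 13.3 and 13.8 RPKM with Foxk1 knockdown, against 21.3, 20.3 and 20.1 (-0.59 ± 0.037 SE, adjusted p = 1.07e-08), and 21.8 and 19.8 with Foxk2 knockdown, against 28.9 and 29.4 (-0.48). It rose by 0.25 under the Foxk1 overexpression label and by 0.39 with Foxk2 overexpression. For both genes the libraries of the 2 groups lie apart in each comparison, a separation that some members without a call also showed. The ornithine carrier gene Slc25a15 was another of the 7 members of this order, with 0.24, -0.19, 0.52 and -0.50 for the Foxk1 label, Foxk1 knockdown, Foxk2 overexpression and Foxk2 knockdown. Its Foxk1 knockdown call was lost without control replicate 3 and in a fit of that comparison alone.

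**Figure D3:**
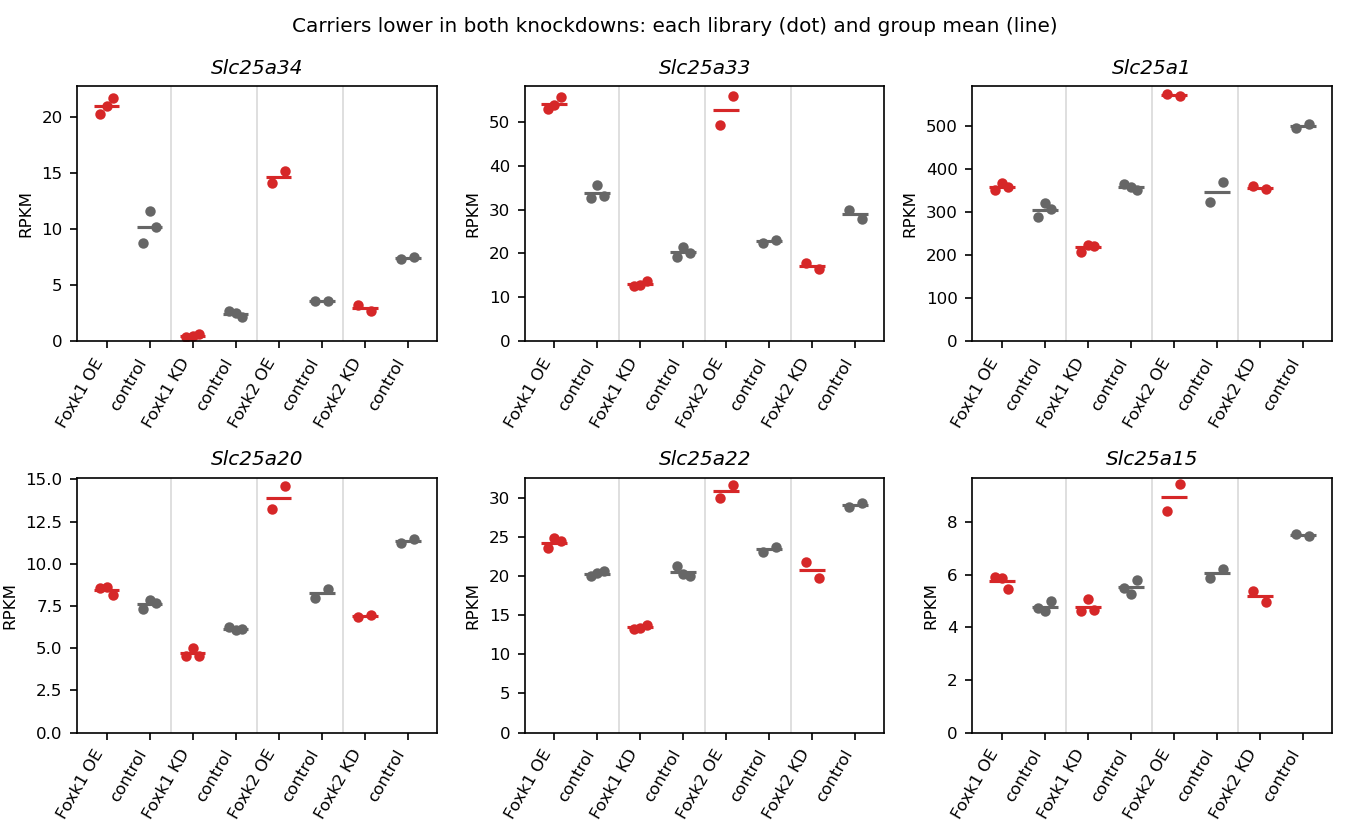
RPKM of 6 carriers in each library (dots) with the group mean (line), red for manipulated groups (OE, overexpression as labelled; KD, knockdown) and grey for the control to the right of each. In every panel the red dots lie above their control after overexpression and below it after knockdown, with Slc25a34 at 0.378, 0.4698 and 0.592 RPKM after Foxk1 knockdown.

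The promoters of 3 members of this order and of Slc25a24, which moved the opposite way, are given because the data set them apart. They are the 250 bases before the transcript start in RefSeq (GRCm38.p6, 5′ to 3′ on the strand of the gene), with matches to 6 searched motifs in capitals: chr4:141623835-141624084 for Slc25a34, chr4:149774268-149774517 for Slc25a33 and chr16:17928220-17928469 for Slc25a1, all on the minus strand, and chr3:109122899-109123148 on the plus strand for Slc25a24.
Slc25a34: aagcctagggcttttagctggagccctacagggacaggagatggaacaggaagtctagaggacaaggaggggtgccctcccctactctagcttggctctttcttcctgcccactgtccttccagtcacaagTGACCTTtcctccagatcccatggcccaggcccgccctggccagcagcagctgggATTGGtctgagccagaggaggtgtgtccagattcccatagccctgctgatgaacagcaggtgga
Slc25a33: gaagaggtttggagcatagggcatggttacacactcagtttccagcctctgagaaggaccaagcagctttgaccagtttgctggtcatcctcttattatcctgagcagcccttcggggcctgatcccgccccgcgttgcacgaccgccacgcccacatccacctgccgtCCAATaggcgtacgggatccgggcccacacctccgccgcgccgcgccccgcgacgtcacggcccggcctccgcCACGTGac
Slc25a1: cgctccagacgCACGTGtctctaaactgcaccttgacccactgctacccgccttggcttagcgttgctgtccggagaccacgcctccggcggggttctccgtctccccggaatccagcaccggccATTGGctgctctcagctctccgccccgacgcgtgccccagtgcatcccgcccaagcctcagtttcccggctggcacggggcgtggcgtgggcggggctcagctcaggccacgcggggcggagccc
Slc25a24: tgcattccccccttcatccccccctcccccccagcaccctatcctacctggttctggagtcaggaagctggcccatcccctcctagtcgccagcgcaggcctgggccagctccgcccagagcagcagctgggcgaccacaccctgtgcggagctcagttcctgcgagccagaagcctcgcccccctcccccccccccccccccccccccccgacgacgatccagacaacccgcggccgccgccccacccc

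The motifs were searched on both strands. They were the forkhead core GTAAACA, the E-box CACGTG, the NRF1 site (by its usual palindrome with 1 free position), the site AAGGTCA of estrogen-related receptors, the box named for its letters CCAAT, and a hypoxia response core, ACGTG, which every E-box match also holds. The Slc25a34 promoter holds the receptor site, on the other strand, at -119 to -113, and a CCAAT box at -64 to -60, counted back from the start. Slc25a33 has an E-box at -8 to -3 and a CCAAT box at -81 to -77, and Slc25a1 an E-box at -239 to -234 and a CCAAT box at -125 to -121. None of the 6 motifs matched in the window of Slc25a24. Promoters were at hand for 36 of the 47 members (46 starts). The E-box matched in 7 of the 36 members, or in 17.4% of their promoters, and in 6.02% of 32851 promoters of all genes. The 7 were Slc25a1, Slc25a13, Slc25a14, Slc25a15, Slc25a31, Slc25a33 and Slc25a36. Among them Slc25a13 passed in no comparison, Slc25a31 was not tested and Slc25a36 fell under the Foxk1 overexpression label. Slc25a22 and Slc25a34, which followed the order above, had no E-box match. The hypoxia core matched in 11 members (26.1% of their promoters, against 16.6% of all) and the CCAAT box in 18 (45.7%, against 33.8%). The NRF1 site matched in 2 members (4.35%, against 3.74%) and the receptor site in 1, Slc25a34 (2.17%, against 4.08%). No member's window held the forkhead core, which 3.17% of all promoters hold. These are matches of letters, and binding was not measured. Whether a motif goes with the direction of change was not tested.

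Slc25a24 was the 1 member that rose in both knockdowns and fell in both overexpression comparisons, a pattern of 6.98% of all genes tested. It encodes a calcium-regulated carrier that exchanges ATP-Mg for phosphate (ENSMUSG00000040322.10, chromosome 3, 109123149 to 109168457, plus strand). Foxk1 knockdown libraries had 15.4, 15.7 and 14.6 RPKM, against 9.71, 10.7 and 10.8 (0.53 ± 0.046 SE, adjusted p = 3.19e-07), and Foxk2 knockdown libraries 8.89 and 9.17, against 6.49 and 6.66 (0.43 ± 0.057 SE, adjusted p = 2.63e-05). The libraries labelled Foxk1 overexpression had 6.27, 5.94 and 5.804 RPKM, against 8.97, 8.19 and 8.49 (-0.48 ± 0.046 SE, adjusted p = 5.20e-07), and Foxk2 overexpression 6.27 and 5.86, against 8.75 and 8.76 (-0.50 ± 0.057 SE, adjusted p = 3.25e-06). Its groups lie apart in each comparison, in the direction of the 12 fibroblast and preadipocyte markers. Its calcium-regulated relative Slc25a25 fell in both overexpression comparisons (-0.21 and -0.36) without passing in a knockdown (-0.10 and 0.078). The call under the Foxk1 label was lost with the length and GC trend removed, and that with Foxk2 in a fit of that comparison alone. Slc25a23, a further member of this branch, stayed under 1 RPKM and passed nowhere.

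Of 6 tested phosphate and adenine nucleotide carriers, 0 rose and 3 fell under the Foxk1 overexpression label, 3 rose and 2 fell with Foxk2 overexpression, and 1 rose and 1 fell in each knockdown. The knockdown counts are near the shares of all genes (20.4% higher and 15.5% lower with Foxk1, 18.0% and 15.7% with Foxk2). For overexpression those shares were 24.1% higher and 23.8% lower under the Foxk1 label, and 23.0% and 22.0% with Foxk2. The ADP/ATP translocases, which export the ATP made in the matrix, differed between their genes. Slc25a5 (also called ANT2) had 270.2, 276 and 266 RPKM in the libraries labelled Foxk1 overexpression, against 349.8, 352 and 332 (-0.35 ± 0.029 SE, adjusted p = 1.07e-07), and 263, 272 and 273 with Foxk1 knockdown, against 319.7, 330.1 and 330.4 (-0.28 ± 0.029 SE, adjusted p = 2.20e-06). It fell in Foxk2 knockdown too, with 253 and 258 RPKM against 297 and 298 (-0.22 ± 0.036 SE, adjusted p = 0.000185). In these 3 comparisons every manipulated library lies below its controls. With Foxk2 overexpression it was slightly higher (0.11 ± 0.036, adjusted p = 0.0214), a call lost after quantile normalization, with the length and GC trend removed, in a fit of that comparison alone, without control replicate 1 and without overexpression replicate 2. It was the 1 member that passed in opposite directions in the overexpression comparisons, where 2.34% of all genes did. Slc25a4 (ANT1) passed in Foxk2 overexpression alone, by 0.10 ± 0.032 (adjusted p = 0.0211), and its sign turned after quantile normalization (-0.030, adjusted p = 0.528). The call was also lost in a fit of that comparison alone, without control replicate 1 and without overexpression replicate 2. Its mean was 235 RPKM with Foxk1 knockdown, against 229, and 241 under the Foxk1 overexpression label, against 231.

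The ratio of the 2 translocase transcripts, Slc25a5 over Slc25a4 in RPKM, was 1.0994 to 1.1446 in the libraries labelled Foxk1 overexpression, against 1.3949 to 1.5573 in the control, and 1.0931 to 1.1739 with Foxk1 knockdown, against 1.3994 to 1.4383. With Foxk2 knockdown it was 1.1200 to 1.1581, against 1.3766 to 1.3813. Foxk2 overexpression, at 1.1415 to 1.1584, overlapped its control at 1.1417 to 1.1419, and that control was itself below the other 3 control groups. The phosphate carrier gene Slc25a3, which supplies the phosphate for ATP synthesis, had 113 and 118 RPKM with Foxk2 overexpression, against 85.3 and 86.2 (0.43 ± 0.031 SE, adjusted p = 2.51e-08). The overexpression libraries lie above both controls, and it passed in no other comparison (-0.031 under the Foxk1 label, -0.023 and -0.044 in the knockdowns).

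Of 5 tested carriers of di- and tricarboxylates, counting Slc25a1 and, by relation, Slc25a34 and Slc25a35, 4 rose and 1 fell in each overexpression comparison, 0 rose and 3 fell in Foxk1 knockdown, and 0 rose and 4 fell in Foxk2 knockdown. Beside them, 24.1% of all genes rose and 23.8% fell under the Foxk1 label, and 23.0% and 22.0% with Foxk2 overexpression. In Foxk1 knockdown 20.4% of all genes rose and 15.5% fell, and in Foxk2 knockdown 18.0% and 15.7%. The 1 that fell with overexpression was the dicarboxylate carrier gene Slc25a10, which exchanges malate or succinate for phosphate and is abundant in white fat. It had 169, 187 and 171 RPKM in the libraries labelled Foxk1 overexpression, against 226, 235 and 246 (-0.42 ± 0.053 SE, adjusted p = 8.58e-06), and 233 and 223 with Foxk2 overexpression, against 320.5 and 364 (-0.58 ± 0.065 SE, adjusted p = 2.67e-06). In Foxk1 knockdown it fell as well, 223, 224 and 225 RPKM against 278, 265 and 251 (-0.24 ± 0.053 SE, adjusted p = 0.00236), while in Foxk2 knockdown it did not pass (0.090 ± 0.065). In the 3 comparisons where it fell, all manipulated libraries lie below all controls. The antisense gene Gm11788 overlaps 6.6% of its exonic bases, so part of its reads is uncertain. The 2-oxoglutarate carrier gene Slc25a11 of the malate-aspartate shuttle, rose in both overexpression comparisons (0.32 ± 0.047 under the Foxk1 label and 0.22 ± 0.057 with Foxk2). It fell in Foxk2 knockdown (-0.17 ± 0.057) and did not pass in Foxk1 knockdown (-0.11). The Foxk2 knockdown call of Slc25a11 was lost in 5 of 30 alternative fits (with no filter, in a fit of that comparison alone, and without control replicate 2, knockdown replicate 1 or knockdown replicate 2). Its Foxk2 overexpression call was lost in 3 (that comparison alone, and without control replicate 1 or overexpression replicate 2). Slc25a35 had 4.14 and 4.25 RPKM with Foxk2 knockdown, against 6.24 and 6.43 (-0.54 ± 0.049 SE, adjusted p = 5.92e-07), and -0.014 on the log2 scale in Foxk1 knockdown, where it did not pass. Of its exonic bases 31.3% overlap the antisense gene Rangrf, so its level is uncertain.

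**Figure D4:**
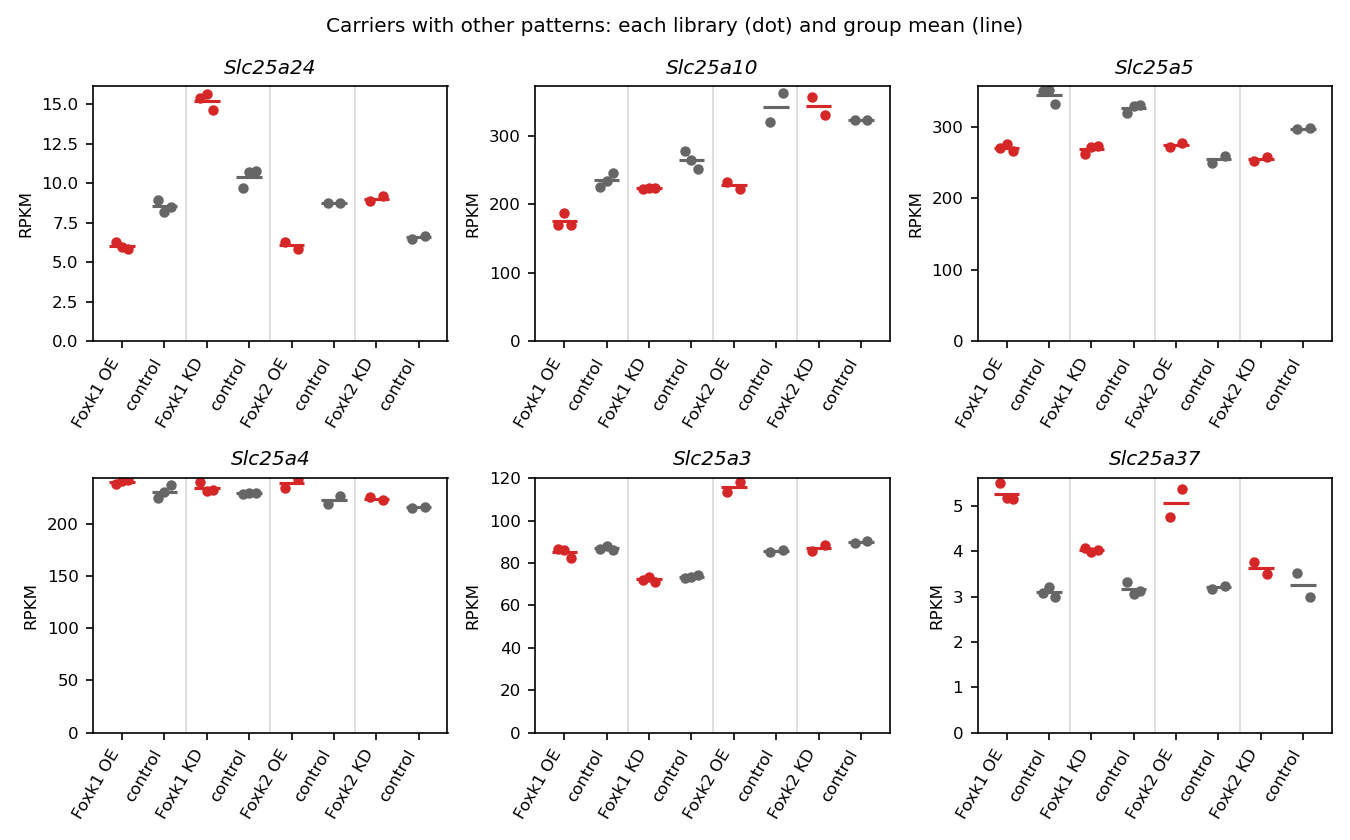
RPKM of 6 carriers in each library (dots) with the group mean (line), red for manipulated groups (OE, overexpression as labelled; KD, knockdown) and grey for the control to the right of each. Slc25a24 is above its controls in both knockdowns, Slc25a10 below its controls in both overexpression comparisons, and Slc25a4 between 216 and 243 RPKM throughout.

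Of the 7 tested amino acid carriers, 3 rose and 0 fell under the Foxk1 overexpression label, 1 rose and 4 fell in Foxk1 knockdown, 4 rose and 0 fell with Foxk2 overexpression, and 1 rose and 4 fell in Foxk2 knockdown. The shares of all genes that rose and fell were 24.1% and 23.8% under the Foxk1 label and 20.4% and 15.5% in Foxk1 knockdown. They were 23.0% and 22.0% with Foxk2 overexpression and 18.0% and 15.7% in Foxk2 knockdown. The count of 1 that rose in each knockdown is near those shares. The rise in both knockdowns was that of Slc25a12 (aralar), an aspartate-glutamate carrier of the malate-aspartate shuttle, with 6.003, 5.44 and 5.36 RPKM in Foxk1 knockdown, against 4.75, 4.79 and 4.71 (0.21 ± 0.044 SE, adjusted p = 0.00132), and 9.25 and 8.94 in Foxk2 knockdown, against 7.16 and 7.42 (0.30 ± 0.054 SE, adjusted p = 0.000455). Its knockdown libraries lie above their controls in both. The first of these calls was lost with the length and GC trend removed (adjusted p = 0.0509). Its paralogue Slc25a13 (citrin) was lower, at 1.23 RPKM on average, and passed nowhere. Slc25a44, a carrier of branched-chain amino acids, fell in both knockdowns (-0.23 ± 0.039 with Foxk1 and -0.39 ± 0.048 with Foxk2) and did not pass in the overexpression comparisons. Slc25a38, the glycine carrier of haem synthesis, rose in both of those (0.30 under the Foxk1 label and 0.32 with Foxk2, the second lost without control replicate 1 and in a fit of that comparison alone). It fell in Foxk2 knockdown (-0.23), a call that was lost on leaving out any 1 of the 4 libraries of that comparison. The basic amino acid carrier gene Slc25a29 had 3.25, 3.07 and 2.99 RPKM in Foxk1 knockdown, against 4.84, 4.35 and 3.86 (-0.42 ± 0.076 SE, adjusted p = 0.000425), and did not pass in Foxk2 knockdown (-0.054).

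The 9 cofactor and vitamin carriers included no member that passed against the lean: 6 rose and 0 fell under the Foxk1 overexpression label, 7 rose and 0 fell with Foxk2 overexpression, 0 rose and 3 fell in Foxk1 knockdown, and 0 rose and 5 fell in Foxk2 knockdown. Against the lean, 23.8% and 22.0% of all genes fell in these overexpression comparisons, and 20.4% and 18.0% rose in the knockdowns. With it, 24.1% and 23.0% rose in the overexpression comparisons, and 15.5% and 15.7% fell in the knockdowns. Slc25a32, which carries folate and FAD into the matrix, had 13.4 and 14.2 RPKM with Foxk2 overexpression, against 8.21 and 7.03 (0.82 ± 0.075 SE, adjusted p = 3.07e-07), and 11.5, 11.8 and 13.03 in the libraries labelled Foxk1 overexpression, against 9.596, 10.2 and 9.14 (0.32 ± 0.061 SE, adjusted p = 0.000533). Its fall in Foxk2 knockdown (-0.21 ± 0.075, adjusted p = 0.0431) was lost in 12 of 30 alternative fits. The glutathione carriers Slc25a39 and Slc25a40 rose in both overexpression comparisons (0.31 and 0.31 under the Foxk1 label, 0.21 and 0.62 with Foxk2). In the knockdowns Slc25a39 fell with Foxk1 (-0.21) and Slc25a40 with Foxk2 (-0.43). Slc25a51, which imports NAD, rose by 0.24 and 0.33 in the overexpression comparisons, and the peroxisomal carrier gene Slc25a17 by 0.13 and 0.23. The Slc25a17 call under the Foxk1 label was lost in 7 of 30 alternative fits, among them quantile normalization and the fits without overexpression replicate 1 or any 1 of the 3 controls. Its Foxk2 call was lost in 4, among them those without control replicate 1 or overexpression replicate 2, and that of Slc25a39 in 3, among them quantile normalization and the fit without control replicate 1. Slc25a26, the carrier of the methyl donor S-adenosylmethionine, fell in Foxk2 knockdown to 2.74 and 2.81 RPKM, against 4.06 and 4.201 (-0.50 ± 0.10 SE, adjusted p = 0.00133), and passed nowhere else. Of 2 genes linked to coenzyme A transport, Slc25a16 fell in both knockdowns (-0.25 and -0.32) and rose with Foxk2 overexpression (0.42), and Slc25a42 passed nowhere.

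Mitoferrins carry iron into the matrix for haem and iron-sulphur clusters, and the 2 genes did not move alike. Slc25a37 (mitoferrin 1) had 5.504, 5.17 and 5.15 RPKM in the libraries labelled Foxk1 overexpression, against 3.09, 3.21 and 2.98 (0.68 ± 0.056 SE, adjusted p = 8.24e-08), and 4.77 and 5.38 with Foxk2 overexpression, against 3.17 and 3.23 (0.59 ± 0.069 SE, adjusted p = 4.31e-06). It rose in Foxk1 knockdown too, 4.07, 3.98 and 4.02 RPKM against 3.33, 3.06 and 3.13 (0.30 ± 0.056 SE, adjusted p = 0.000592), so both Foxk1 comparisons gave the same sign, with no overlap between groups. Slc25a28 (mitoferrin 2), the more abundant at 20.7 RPKM on average, fell with Foxk2 overexpression (18.9 and 19.5 RPKM, against 23.9 and 23.95; -0.31 ± 0.079 SE, adjusted p = 0.00472). Its call in Foxk1 knockdown (-0.17, adjusted p = 0.0463) was lost in 18 of 30 alternative fits. Slc25a36, the other pyrimidine nucleotide carrier, fell under the Foxk1 overexpression label (-0.16), where its relative Slc25a33 rose. That call was lost with the length and GC trend removed and without control replicate 2.

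Among relatives of the uncoupling proteins, Slc25a30 rose with Foxk2 overexpression (12.3 and 14.2 RPKM, against 9.01 and 9.71; 0.48 ± 0.10 SE, adjusted p = 0.000668), Slc25a14 fell in Foxk2 knockdown (-0.37 ± 0.11) and Slc25a27 passed nowhere. The Slc25a14 call was lost in 4 of 30 alternative fits, among them those without control replicate 1, control replicate 2 or knockdown replicate 2. Slc25a46, an outer membrane member that acts on mitochondrial shape, rose with Foxk2 overexpression (0.46 ± 0.040) and fell in Foxk1 knockdown (-0.13 ± 0.033) and Foxk2 knockdown (-0.31 ± 0.040). Slc25a45 fell in both overexpression comparisons (-0.22 ± 0.088 under the Foxk1 label, adjusted p = 0.0482, and -0.40 ± 0.11 with Foxk2, adjusted p = 0.00614), and the first of these calls was lost in 16 of 30 alternative fits, the second in 3, among them those without control replicate 1 or overexpression replicate 2. Slc25a13, Slc25a23, Slc25a27, Slc25a42, Slc25a47 and Slc25a53 passed in no comparison (6 of 39, against 27.9% of all genes tested), and all of these but Slc25a42 averaged under 2 RPKM. Of 5 relatives outside the Slc25a naming, the brown fat gene Ucp1 did not pass the filter. Ucp3 fell in 3 comparisons (-0.51 under the Foxk1 overexpression label, -0.69 and -0.84 in the Foxk1 and Foxk2 knockdowns) and rose with Foxk2 overexpression (0.50). Mtch2, the outer membrane insertase, rose in both overexpression comparisons (0.13 under the Foxk1 label and 0.43 with Foxk2) and fell in the Foxk1 and Foxk2 knockdowns (-0.090 and -0.30). Its relative Mtch1 passed under the Foxk1 label alone, where it rose (0.18), and Ucp2 with Foxk2 overexpression alone, where it rose (0.18).

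Setting the comparisons side by side, 11 members fell in both knockdowns, which is 73.3% of the 15 that fell with Foxk1 and 61.1% of the 18 that fell with Foxk2, and 8.03% of all genes tested did so. Among these 11 were Slc25a1, Slc25a5, Slc25a15, Slc25a16, Slc25a20, Slc25a22, Slc25a33, Slc25a34, Slc25a44 and Slc25a46. Of the members that rose under the Foxk1 overexpression label, 16 of 16 rose with Foxk2 overexpression as well, which is 69.6% of the 23 there, and 13.5% of all genes tested rose in both. In both of these comparisons Foxk2 transcript was higher and Foxk1 transcript lower than in the control. Those that fell in both knockdowns and rose in both overexpression comparisons were 7, against 4.52% of all genes. Slc25a10, Slc25a24, Slc25a25 and Slc25a45 fell in both overexpression comparisons (4 members, against 14.0% of all genes), and Slc25a12 and Slc25a24 rose in both knockdowns (2, against 11.2%). The Foxk1 and Foxk2 comparisons share no library, and Pearson's r of the log2 fold changes over the 39 members was 0.795 between the knockdowns (Spearman 0.717) and 0.830 between the overexpression comparisons (Spearman 0.759), beside 0.513 and 0.616 over all 15981 genes. Within a factor, r between overexpression and knockdown over the members was -0.572 for Foxk1 and -0.727 for Foxk2, beside -0.482 and -0.573 over all genes. These correlations run across genes of 1 family that share the libraries of each comparison, and genes are not independent replicates.

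**Figure D5:**
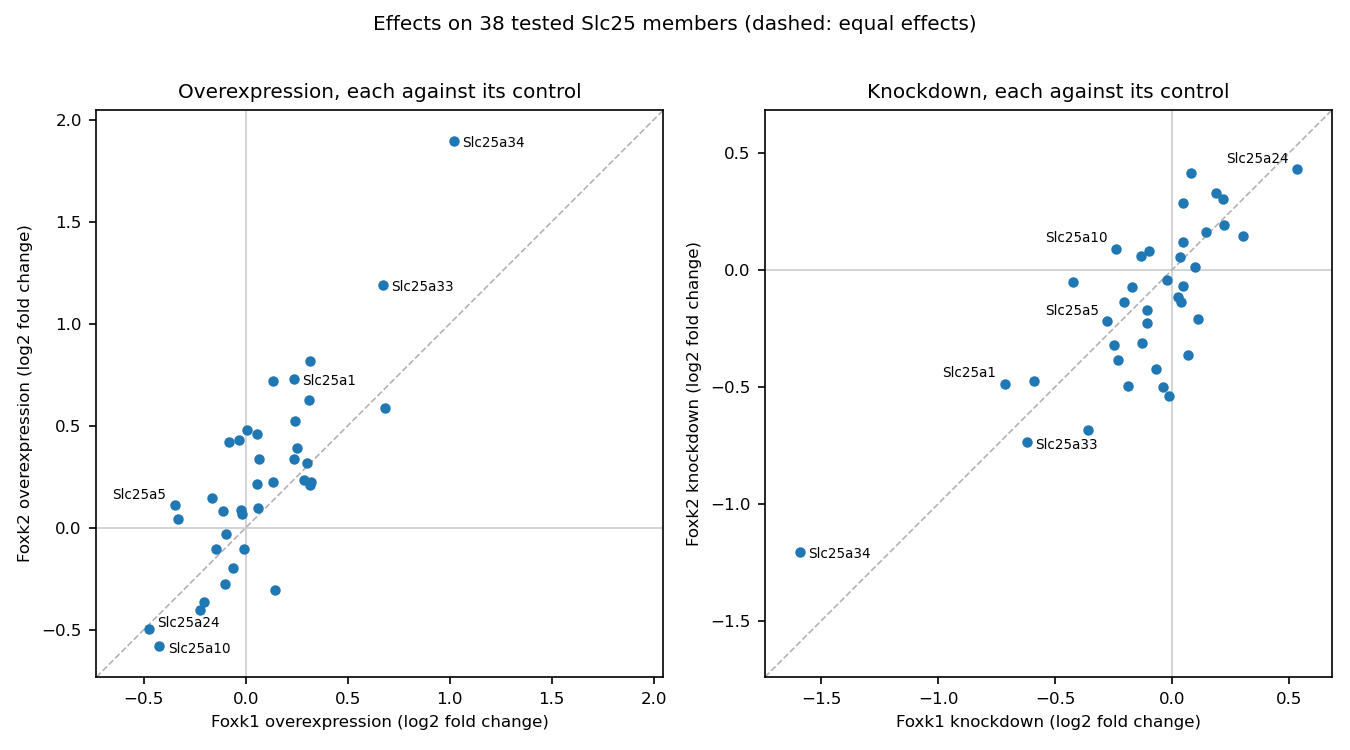
Log2 fold changes of 38 of the 39 tested Slc25 members with Foxk1 (x axis) against Foxk2 (y axis), for the overexpression comparisons on the left, Foxk1 as labelled, and the knockdowns on the right, with a dashed line where both are equal. On the left most points lie above the line, with Slc25a34 at 1.02 and 1.90, and on the right Slc25a34 stands at -1.59 and -1.21.

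The effects of the 2 factors were also compared directly, as a difference of log2 fold changes in the same model, Foxk1 minus Foxk2. For overexpression the difference passed for 15 members, 1 higher and 14 lower, against 25.1% of all genes (11.6% higher, 13.5% lower). It was -0.88 ± 0.15 (SE, adjusted p = 0.000742) for Slc25a34, -0.58 ± 0.072 (SE, adjusted p = 3.79e-05) for Slc25a20, -0.52 ± 0.087 for Slc25a33 and -0.49 ± 0.075 for Slc25a1, so these rose less under the Foxk1 label than with Foxk2. For the knockdowns the difference passed for 8 members, 7 higher and 1 lower, against 14.3% of all genes (6.68% higher, 7.63% lower), among them Slc25a35 (0.53 ± 0.064 SE, adjusted p = 7.79e-05), which fell with Foxk2 and did not pass with Foxk1. Slc25a34, Slc25a33 and Slc25a1 were not among these 8: their differences were -0.38 ± 0.15, 0.12 ± 0.087 and -0.23 ± 0.075. The knockdown count fell to as few as 2 on leaving out 1 library (Foxk2 control replicate 1), with values of 5 without Foxk1 control replicate 2, 4 without Foxk2 control replicate 2, 4 without Foxk2 knockdown replicate 1 and 3 without Foxk2 knockdown replicate 2. The sets compared here differ in depth, replicate number and the first principal component, so these cannot be told apart from the factor.

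The controls themselves differed for the members that moved most. Slc25a34 averaged 10.2 RPKM in the empty vector control of the Foxk1 set and 2.45 in its scrambled shRNA control, a ratio of 4.16, while in the Foxk2 set the empty vector control, at 3.58 RPKM, was below the scrambled control at 7.42 (ratio 0.482). The same ratios were 1.67 and 0.787 for Slc25a33 and 1.01 and 1.03 for Slc25a4. For Slc25a34 and Slc25a33, then, the 2 kinds of control stood in opposite order in the 2 sets, and these ratios are given with no test. For Slc25a34 the Foxk2 overexpression mean (14.7 RPKM, against 3.58) was 4.11 times its control, and the Foxk2 knockdown mean (2.94 RPKM, against 7.42) 0.397 times.

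Of 12 genes of the TIM22 import route, 8 rose and 1 fell under the Foxk1 overexpression label, 10 rose and 0 fell with Foxk2 overexpression, 0 rose and 6 fell in Foxk1 knockdown, and 0 rose and 7 fell in Foxk2 knockdown, with median log2 fold changes of 0.17, 0.30, -0.13 and -0.20 in that order. Of all genes tested, 24.1% rose and 23.8% fell under the Foxk1 label, 23.0% and 22.0% with Foxk2 overexpression, 20.4% and 15.5% in Foxk1 knockdown and 18.0% and 15.7% in Foxk2 knockdown. Timm10 and Timm13, intermembrane chaperones, rose in both overexpression comparisons (0.29 and 0.26 under the Foxk1 label, 0.20 and 0.31 with Foxk2) and fell in both knockdowns (-0.33 and -0.34 with Foxk1, -0.35 and -0.24 with Foxk2). Timm9, the partner of Timm10, rose with Foxk2 overexpression (0.55) and fell in the Foxk1 and Foxk2 knockdowns (-0.37 and -0.39). The channel gene Timm22 passed only in Foxk2 knockdown (-0.21), and the member that fell under the Foxk1 label was Timm29 (-0.18).

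Enzymes on either side of the citrate carrier (Cs, Acly, Acaca, Fasn and Me1) fell in both knockdowns, 5 of 5 in each, and 4 of 5 rose in each overexpression comparison (medians of 0.35 under the Foxk1 label, -0.68 in Foxk1 knockdown, 0.43 with Foxk2 overexpression and -0.60 in Foxk2 knockdown). Among all genes, 15.5% and 15.7% fell in the Foxk1 and Foxk2 knockdowns. Under the Foxk1 label 24.1% rose, and with Foxk2 overexpression 23.0%. These 5 enzymes were chosen with earlier results of these data known. Me1, the cytosolic malic enzyme that makes NADPH, had 129 ± 1.55 RPKM in the libraries labelled Foxk1 overexpression, against 92.5 ± 13.1 (SD, n = 3 each), and a log2 change of 0.49. Its other changes were -0.61 in Foxk1 knockdown, 0.86 with Foxk2 overexpression and -0.92 in Foxk2 knockdown. ATP citrate lyase (Acly) fell by 0.69 and 0.50 in the Foxk1 and Foxk2 knockdowns. It rose under the Foxk1 overexpression label (0.43) and did not pass with Foxk2 (0.13), and Fasn did the reverse (0.057, not passing, under the Foxk1 label and 0.40 with Foxk2). In the malate-aspartate shuttle the cytosolic transaminase gene Got1 rose in both overexpression comparisons (1.01 under the Foxk1 label and 0.91 with Foxk2) and fell in the knockdowns (-0.28 and -0.21), while the mitochondrial Got2 rose in the Foxk1 and Foxk2 knockdowns (0.48 and 0.71), as its shuttle partner Slc25a12 did.

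Around the acylcarnitine carrier the signs parted. Of 4 tested carnitine enzyme genes, 0 rose and 3 fell under the Foxk1 label, and 1 rose and 2 fell with Foxk2 overexpression. In each knockdown 2 rose and 2 fell. Their log2 fold changes ran from -0.49 to 0.69 in Foxk1 knockdown and from -0.60 to 1.26 in Foxk2 knockdown. The shares of all genes are given at the end of this paragraph. Cpt1a, the outer membrane enzyme that makes acylcarnitine, fell in both overexpression comparisons (-0.64 under the Foxk1 label and -0.96 with Foxk2) and rose in the knockdowns (0.31 and 0.41), opposite to Slc25a20. The matrix enzyme gene Cpt2 fell under the Foxk1 label (-0.19) and in the knockdowns (-0.16 and -0.20). The pyruvate carrier, which is built from Mpc1 and Mpc2 outside the Slc25 family, followed the order of Slc25a1. Mpc1 rose by 0.52 under the Foxk1 label and by 0.79 with Foxk2 overexpression, and gave -0.24 and -0.51 in the Foxk1 and Foxk2 knockdowns, where it fell. Mpc2 rose by 0.34 and 0.99, and fell with -0.26 and -0.49. Sfxn3, a sideroflexin of the same membrane, ran the other way, with -0.89 and -0.71 in the overexpression comparisons and 0.67 and 1.05 in the knockdowns. The outer membrane channel genes Vdac1 and Vdac2 rose in both overexpression comparisons (0.33 and 0.34 under the Foxk1 label, 0.29 and 0.47 with Foxk2). Of 6 tested calcium uniporter genes, 3 rose and 1 fell under the Foxk1 label, 3 rose and 0 fell with Foxk2 overexpression, 0 rose and 1 fell in Foxk1 knockdown, and 0 rose and 2 fell in Foxk2 knockdown. In the Foxk1 and Foxk2 knockdowns 20.4% and 18.0% of all genes rose, and 15.5% and 15.7% fell. The 1 uniporter gene that fell in Foxk1 knockdown is near that share, and counts among 6 genes are coarse. Under the Foxk1 label 24.1% of all genes rose and 23.8% fell, and with Foxk2 overexpression 23.0% and 22.0%.

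In the genome 4 pairs of members lie next to each other in mm10, and their levels differed within each pair. Slc25a29 and Slc25a47 lie 163 bases apart on chromosome 12, on opposite strands, and averaged 4.81 and 0.714 RPKM over the 20 libraries. Slc25a24 lies 6462 bases from Slc25a54 on chromosome 3, and the first averaged 9.07 RPKM while the second had 10 reads in all. On the X chromosome Slc25a5, with 289.9 RPKM, lies 18449 bases from Slc25a43, which had none. Slc25a23 and Slc25a41 lie 2057 bases apart on chromosome 17, with 0.593 and 0.0198 RPKM. Slc25a34 and Slc25a33 are both on chromosome 4 and are no neighbours, at chr4:141618824-141623821 and chr4:149744036-149774277. Antisense genes also overlap 8.9% of the exonic bases of Slc25a11, 7.1% of Slc25a46 and 6.3% of Slc25a37, and a near-identical copy, Gm13217, covers 10.4% of Slc25a36, so their levels carry that uncertainty.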

How the data were processed

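RNA of 3T3-L1 adipocytes was sequenced in 20 libraries of 8 groups, mapped from the sample titles. The authors deposited 1 table of RPKM values. The submitters' processing notes name mm10, HISAT2 2.1.0, Picard 1.141, featureCounts of Subread 1.5.1 and edgeR, without their roles; the strand setting is not given in the sources used here. GENCODE M21 gave symbols, coordinates and exon lengths (10 members carry another identifier version). RPKM multiplied by length came out as whole reads for 100% of values of identifiers of the same version, within 0.1 read, which gave the depth. For the other versions the length is the shortest that makes reads whole.

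The scale was log2(RPKM + 0.5), on which changes of low genes come out smaller than they are. Genes with 0.5 RPKM or more in at least 2 libraries entered a limma fit (limma 3.58.1, R 4.3.3) of 8 group means with an intensity trend in eBayes (12 residual degrees of freedom), tested two-sided. Differences between factors were contrasts of contrasts. The script was tested on simulated data. The members, the lists of related genes and the markers were chosen with earlier results of these data known. Values per library were given for up to 6 higher and 6 lower members of largest change per comparison, if the higher group averaged at least 2 RPKM. The values of 1 member are not reported here, though it counts in all totals. The others are given by class, and members with another pattern, among them Slc25a3, Slc25a4 and Slc25a30, were named after their values were seen. Related genes named beyond the 4 of smallest p per list were also chosen after their values were seen.

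Alternatives were 2 pseudocounts, 2 filters, 2 scalings, a fit of the groups compared alone, voom on recovered reads, removal of a length and GC trend, a replicate block and each library left out. Near-identical copies were searched with BLAST+ 2.17.0 (99% identity over 100 bases). Promoters came from RefSeq. Tables and plots were made in Python 3.11.15 with matplotlib 3.10.9 and pandas 2.3.3. All intervals of read counts cover counting error only.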

Additional observations from a re-analysis of the deposited data

Results flagged for a closer look

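The members listed here are those whose response to Foxk1 and to Foxk2 differed by the test of the difference itself (Foxk1 minus Foxk2, log2). For overexpression, the carriers of metabolites differed by -0.88 (Slc25a34), -0.49 (Slc25a1), -0.58 (Slc25a20), -0.46 (Slc25a3), -0.46 (Slc25a5) and -0.28 (Slc25a15). The cofactor carriers differed by -0.50 (Slc25a32), -0.50 (Slc25a16) and -0.31 (Slc25a40). The pyrimidine nucleotide carriers gave -0.52 (Slc25a33) and -0.31 (Slc25a36). Slc25a30, related to the uncoupling proteins, gave -0.47 and the outer membrane member Slc25a46 gave -0.41. Mitoferrin 2 (Slc25a28) was the 1 positive difference (0.45).

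For the knockdowns the difference was 0.53 for Slc25a35, 0.46 for Slc25a26, 0.35 for Slc25a40, 0.32 for Slc25a20, 0.32 for Slc25a32, 0.31 for Slc25a15 and 0.19 for Slc25a46, all positive, and -0.33 for Slc25a10. Slc25a15, Slc25a20, Slc25a32, Slc25a40 and Slc25a46 passed in both contrasts, with the larger change for Foxk2 each time. Of these, Slc25a20 alone kept both calls in all 30 alternative fits. The knockdown difference was lost in 11 of them for Slc25a32, in 7 for Slc25a15, in 7 for Slc25a46 and in 2 for Slc25a40, and the overexpression difference in 5 for Slc25a15 and in 5 for Slc25a40. Beyond these 5 members, the knockdown difference was lost in 8 fits for Slc25a26 and in 5 for Slc25a10, and the overexpression difference in 2 each for Slc25a30 and Slc25a36. The Foxk1 and Foxk2 sets also differ in depth, in replicate number and on the first principal component, which cannot be told apart from the factor.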

How the results depend on the processing

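Of 111 calls of members over the 4 comparisons and 2 differences, 75 held in all 30 alternative fits. The fit of the groups compared alone, which does not pool the spread over both sets for the 4 comparisons, kept 91 and lost 20. Of the 3330 alternative values of called members, 161 kept their sign without passing and 1 turned sign: Slc25a4 in Foxk2 overexpression after quantile normalization (-0.030, adjusted p = 0.528). Counts of members moved by over 1.5 times in 3 fits on all libraries or on the groups compared: 3 lower under the Foxk1 overexpression label with the length and GC trend removed (6 otherwise), 3 lower with Foxk2 overexpression in a fit of that comparison alone (5 otherwise), and 4 higher in Foxk2 knockdown with voom (2 otherwise). The cause was not tested. On leaving out 1 library, the counts were 14 to 17 higher and 5 to 7 lower under the Foxk1 overexpression label, 3 to 4 and 14 to 15 in Foxk1 knockdown, 18 to 24 and 4 to 6 with Foxk2 overexpression, and 2 to 3 and 14 to 19 in Foxk2 knockdown. Differences between the factors ranged from 11 to 16 members for overexpression and from 2 to 10 for knockdown. Where a Foxk2 group was left with 1 library, that library is assumed to vary like the other groups.

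Deviations of same-numbered libraries from their group means correlated at -0.0858 to 0.0331. These values cannot exclude a pairing of the libraries, and in the Foxk2 sets both replicate numbers necessarily give the same value. The replicate block gave 16 higher and 6 lower, 3 and 14, 23 and 5, and 2 and 17 members in the order above, and 15 and 6 differences. Over all genes, the share of calls that were higher was 56.9% in Foxk1 knockdown and 53.5% in Foxk2 knockdown, but 43.5% and 40.4% with the length and GC trend removed. Under the Foxk1 overexpression label it was 50.3%, and 58.0% with the trend removed. For Foxk2 overexpression the shares were 51.2% and 54.8%. Small shifts of members near the threshold are limited by 2 or 3 libraries per group.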
